A study of Mus musculus with 8 samples.

Results

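The hearts described here had lost ERRα and kept ERRγ. Of 8 heart RNA libraries, 2 each from 4 genotypes, the 2 αKOγWT libraries (no functional ERRα allele, ERRγ wild type) were compared with the 2 αHetγWT libraries (1 working ERRα allele, ERRγ wild type), so 4 of the 8 libraries answer the question. All were made from C57BL/6 hearts taken at postnatal day 16. Each library was made from RNA pooled from the hearts of 2 to 3 mice (3 by the paper), so a library is a pool and not an animal. The other genotypes, αHetγKO and αKOγKO, carry the same ERRα alleles with ERRγ deleted in cardiomyocytes by the Myh6-Cre transgene. They serve below as a second setting for ERRα loss. The authors describe fatal dilated cardiomyopathy with heart failure in αKOγKO mice, and normal heart function in the other genotypes. In that second setting, ERRα loss therefore cannot be told apart from heart failure. Because the αHetγWT reference already lacks 1 ERRα allele, the comparison measures the step from 1 allele to none. ERRα was missing in the whole animal, and whether the γWT hearts carried the Cre transgene was not given in the sources used here. The labels do not say that the 2 pools of a genotype came from separate litters, so the p-values measure the spread between pools.

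Estrogen-related receptors are orphan nuclear receptors that bind DNA without a known natural hormone. In heart, ERRα and ERRγ bind many of the same promoters and, with the coactivators PGC-1α and PGC-1β, switch on genes of the respiratory chain, the tricarboxylic acid cycle and fatty acid oxidation, along with genes of contraction and ion transport. Their usual recognition sequence is the nuclear receptor core AAGGTCA with an extension on its 5′ side, written TNAAGGTCA. Heart muscle passes from a fetal to an adult programme in the weeks after birth, exchanging fetal sarcomere isoforms such as slow skeletal troponin I for adult ones.

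The 4 libraries held 29.1 M and 30.5 M uniquely assigned reads (αHetγWT) and 31.4 M and 30.7 M (αKOγWT), in a range of 28.2 M to 36.8 M over all 8. The cardiomyocyte genes Myh6, Tnnt2, Actc1, Tnni3 and Ryr2 were abundant in each, with Myh6 between 7424 and 8164 RPKM (reads scaled to gene length and library total). The replicates of αKOγWT lay further apart than those of αHetγWT, with an SD of the log2 difference between replicates of 0.542 against 0.404. Red cell genes differed between those replicates, 11 of them summing to 1093 RPKM in αKOγWT replicate 1 and 3553 RPKM in replicate 2, against 2107 and 2210 RPKM in αHetγWT. Brown fat transcripts also varied, Ucp1 counting 4677 and 1630 reads in αHetγWT against 65 and 1405 in αKOγWT. The secretoglobin Scgb1a1 of airway epithelium ranged from 12 reads in αKOγWT replicate 1 to 2279 in replicate 2. Of 9 tested red cell genes Car2 alone passed the test between genotypes, and neither Ucp1 (adjusted p = 0.408) nor Scgb1a1 (adjusted p = 0.701) did. The part of these signals in the results below was not tested.

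Esrra (gene ID 26379, chr19:6910977-6922048, build GRCm38.p6) was read 2962 and 3165 times in αHetγWT and 119 and 84 times in αKOγWT. The levels were 44.9 and 45.8 RPKM against 1.68 and 1.21 RPKM, and the groups stood far apart. The log2 fold change was -4.97 ± 0.14 (SE, n = 2 libraries a genotype; edgeR quasi-likelihood test, Benjamini-Hochberg adjusted p = 1.57e-06). Without cardiac ERRγ the same allele gave 2978 and 3483 reads in αHetγKO and 118 and 136 in αKOγKO. Esrra therefore matched its label in every library.

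Esrrg, which encodes ERRγ, stood at 6.83 and 6.44 RPKM in αHetγWT and 8.23 and 7.23 RPKM in αKOγWT, a log2 difference of 0.23 ± 0.09 that did not pass (adjusted p = 0.312). Esrrb, which encodes the third receptor of the family, gave 0.23 ± 0.24 (adjusted p = 0.708). Of 18 tested genes of the list of ERR receptors and their coregulators, Esrra alone passed, and the coactivator genes Ppargc1a (0.09, adjusted p = 0.777) and Ppargc1b (0.03, adjusted p = 0.945) lay close to 0. In the γKO libraries Esrrg was not lower in total (7.75 and 8.23 RPKM in αHetγKO, 15.2 and 17.6 RPKM in αKOγKO). A count over the whole gene does not show which exons remain, so it is no check of the γKO label.

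With ERRγ intact, few genes passed the test. Rises, falls and genes that passed are given by edgeR over the 8 libraries unless another tool is named. Of 15076 genes tested, 112 were higher in αKOγWT (0.743%) and 74 were lower (0.491%), together 186 genes or 1.23%. The median log2 fold change was 0.85 among the rises (0.34 to 8.23) and -0.76 among the falls (-5.96 to -0.4). At least a 2-fold difference was reached by 43 rises and 24 falls. At an unadjusted p under 0.05, 1122 genes (7.44%) were higher and 1059 (7.02%) lower. The 2 genotypes were alike for most genes, 69.1% of them within 0.25 of 0 on the log2 scale. All 186 genes had non-overlapping libraries, as had 7471 of the 15076 tested (25.1% higher and 24.5% lower), so this adds little to the test.

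**Figure D1:**
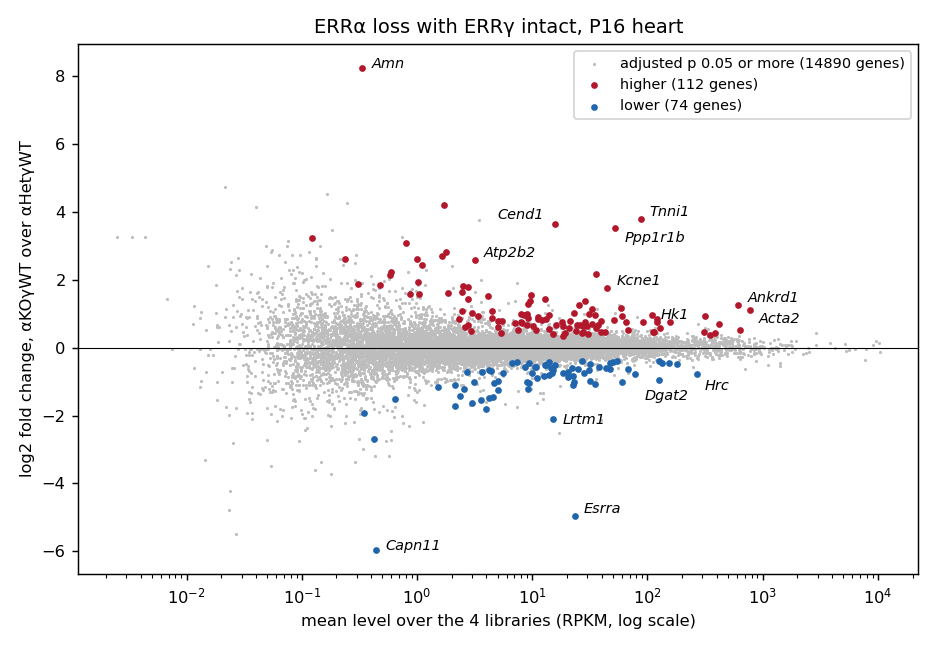
Log2 fold change of αKOγWT over αHetγWT (vertical axis) against the mean level over the 4 libraries in RPKM (horizontal axis, log scale) for each tested gene with a level above 0. The 112 genes higher in αKOγWT are red, the 74 lower genes blue and the rest grey, and most genes lie near 0.

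Which genes passed depended on the libraries in the fit. Without αHetγWT replicate 1 the counts fell to 11 rises and 3 falls, and without αHetγWT replicate 2 to 14 and 10. Without αKOγWT replicate 1 they were 67 and 32, and without αKOγWT replicate 2 they were 30 and 16. Leaving out either αHetγKO library, which is in neither group compared, gave 49 and 35. Leaving out αKOγKO replicate 1 raised them to 370 and 319, and leaving out αKOγKO replicate 2 to 364 and 322. A core of 10 rises (among them B4galt5, Cacna1d, Cadm4, Cend1, Eppk1, Hk1, Kcne1, Ppp1r1b and Sugt1) and 3 falls (Esrra, Kifc3 and Trim54) passed in each of the 18 alternative fits that tested them. Each of the other 173 genes lost its call in at least 1 of these fits.

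**Figure D2:**
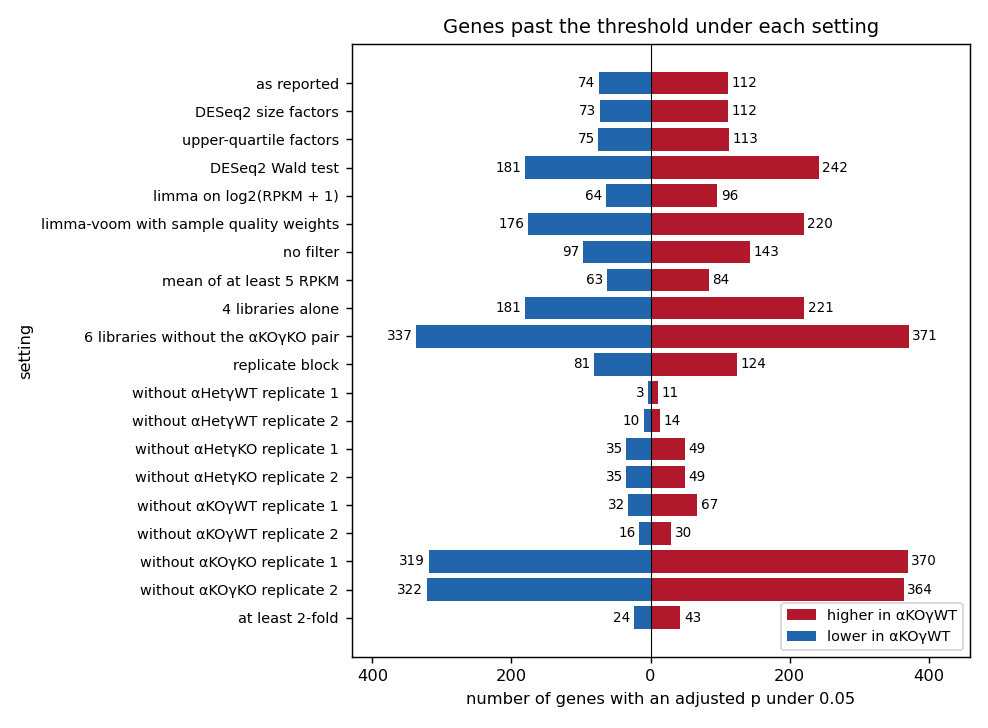
Number of genes past an adjusted p of 0.05 (horizontal axis) under each setting (vertical axis), with genes higher in αKOγWT to the right in red and lower ones to the left in blue. The counts run from 11 and 3 without αHetγWT replicate 1 to 371 and 337 in the 6 libraries without αKOγKO.

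The largest rises were genes at low level in the reference heart. Cend1 (chr7:141426446-141429562), which encodes a membrane protein of differentiating neurons, stood at 2.05 and 2.69 RPKM in αHetγWT and at 28.1 and 30.4 RPKM in αKOγWT. Its log2 fold change was 3.63 ± 0.17 (adjusted p = 7.37e-05). Ppp1r1b (chr11:98348406-98357796) encodes a protein phosphatase inhibitor best known from dopamine-responsive neurons. It rose from 8.18 and 8.71 RPKM to 89.0 and 104 RPKM (3.52 ± 0.20, adjusted p = 0.00023). Both genes thus moved from a low to a middling level for heart, and their replicates lay close together.

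Some genes of pumps and channels were also among the rises. Atp2b2, a calcium pump of the plasma membrane, rose from 0.787 and 1.03 to 5.82 and 4.97 RPKM (2.57 ± 0.28, adjusted p = 0.00551). The main pump of the sarcoplasmic reticulum, Atp2a2, gave -0.14 (adjusted p = 0.471).

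The potassium channel subunit gene Kcne1 (chr16:92346001-92359468), which slows the delayed rectifier channel, rose from 18.1 and 23.3 to 64.2 and 73.7 RPKM. The log2 fold change was 1.74 ± 0.14 (adjusted p = 0.00118). Its pore partner Kcnq1 gave -0.07 (adjusted p = 0.875). Kcnh6, a channel of the ERG family, rose from 29 and 30 reads to 176 and 154 (2.43 ± 0.31, adjusted p = 0.0104). Cacna1d (chr14:30039941-30491156), the L-type calcium channel of the sinus node and atria, rose from 1.94 and 2.28 to 6.15 and 5.99 RPKM (1.53 ± 0.11, adjusted p = 0.000648). Cacna1c, its ventricular counterpart, gave 0.02 (adjusted p = 0.953). The atrial marker genes summed to 4975 and 5426 RPKM in αHetγWT and to 4572 and 7525 RPKM in αKOγWT, and none of the 13 passed (edgeR; 1 higher and 3 lower at an unadjusted p under 0.05; none by DESeq2).

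The channel genes that passed went both ways. The fixed list of ion channel and conduction genes had 27 tested members, of which 2 rose (Kcne1, and the pacemaker channel gene Hcn2 at 0.45 ± 0.08, adjusted p = 0.0458), 2 fell (among them the silent potassium channel subunit Kcnv2 at -1.52 ± 0.27, adjusted p = 0.0387) and 23 did not pass, with a median of -0.12. Kcnv2 went from 166 and 122 reads to 56 and 48. Scn4b, a sodium channel subunit, went from 59 and 60 reads to 11 and 16 and did not pass (-2.18 ± 0.55, adjusted p = 0.129). Kcnk3, which encodes a background potassium channel and was outside the list, fell from 59.2 and 55.3 to 42.1 and 42.7 RPKM (-0.43 ± 0.07, adjusted p = 0.0262). Gja1 (-0.14), the main gap junction gene, did not pass. DESeq2 called 3 genes of the list higher and 4 lower.

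Among calcium handling genes, 2 of 22 fell and none rose (median -0.12). Hrc, whose histidine-rich product binds calcium in the sarcoplasmic reticulum, fell from 344 and 344 to 220 and 178 RPKM (-0.78 ± 0.10, adjusted p = 0.00949). Cacna1h, a T-type calcium channel of the young heart, fell from 4.71 and 4.39 to 2.65 and 2.88 RPKM (-0.71 ± 0.10, adjusted p = 0.0168). Ryr2 (-0.3, adjusted p = 0.142), Casq2 (-0.15) and Slc8a1 (0.61, adjusted p = 0.0727), the release channel, the calcium store protein and the sodium-calcium exchanger, did not pass. DESeq2 called 1 gene of the list higher and 4 lower.

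**Figure D3:**
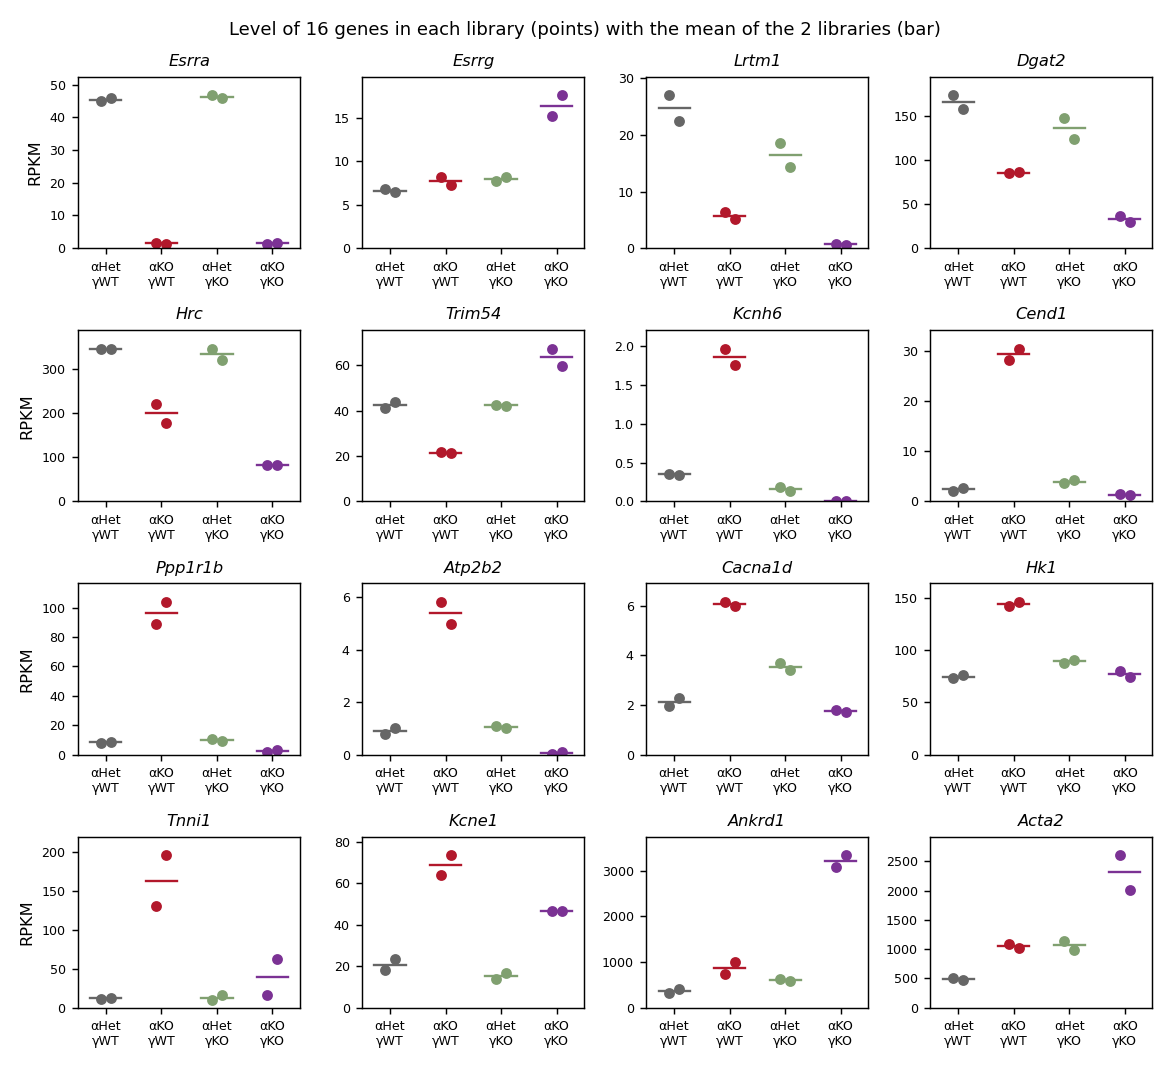
Level of 16 genes in RPKM (vertical axes, from 0) in each library of the 4 genotypes (horizontal axes), as points with the mean of the 2 libraries as a bar. Esrra falls with the αKO genotype in both settings, whereas Cend1 is at 28.1 and 30.4 RPKM in αKOγWT and at or below 4.31 RPKM in the other 6 libraries.

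Of the sarcomere genes only a troponin passed in edgeR, while 4 of 27 were higher and 2 lower at an unadjusted p under 0.05 (median 0.03). Acta1, also in the fetal programme list, stood at 64.1 and 49.3 against 92.6 and 119 RPKM and did not pass (0.91 ± 0.33, adjusted p = 0.267). Tnni1 (chr1:135783033-135810989), the slow skeletal troponin I gene of the fetal heart, rose from 11.5 and 12.4 to 130 and 196 RPKM. Its log2 fold change was 3.78 ± 0.55 (adjusted p = 0.0165), and the call was lost without αHetγWT replicate 1, αHetγWT replicate 2 or αKOγWT replicate 2, with estimates between 3.44 and 4.05 in all 18 alternatives. The adult isoform Tnni3 remained far more abundant (5413 and 5534 against 4939 and 5139 RPKM) and did not pass. Tnni1 was the only one of 27 sarcomere genes to pass in edgeR (2 higher and 0 lower by DESeq2), and the fetal myosin Myh7 stood at 28.3 and 29.4 against 27.9 and 27.2 RPKM (-0.06 ± 0.07).

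Of 30 genes of the heart failure and fetal programme, 3 rose and none fell in edgeR (5 and 0 by DESeq2), against 0.743% and 0.491% of all genes. The median was 0.30 against 0 over all genes. At an unadjusted p under 0.05 in edgeR, 10 of the 30 were higher and 0 lower, against 7.44% and 7.02%. Both αKOγWT libraries lay above both αHetγWT libraries for 17 of the 30 and below for 2, against 25.1% and 24.5%. The 3 that rose were Tnni1, Ankrd1 and Thbs4. Ankrd1, a stretch-responsive nuclear and sarcomeric ankyrin repeat protein, rose from 329 and 402 to 731 and 996 RPKM (1.25 ± 0.16, adjusted p = 0.00972). Thbs4, a matricellular protein of stressed heart, rose from 2.43 and 3.30 to 7.15 and 5.07 RPKM (1.09 ± 0.19, adjusted p = 0.0313). The natriuretic peptide genes were less even. Nppb stood at 74.4 and 79.0 RPKM in αHetγWT and at 99.0 and 206 RPKM in αKOγWT (1.00 ± 0.30, adjusted p = 0.191). Nppa stood at 2313 and 2621 against 2304 and 4242 RPKM (0.42 ± 0.24, adjusted p = 0.47). Replicate 2 of αKOγWT was the high one for both, and Nppa gave -0.11 without it and 0.79, past the threshold, without αKOγWT replicate 1. Nppa is itself 1 of the 13 atrial markers, and the other 12 summed to 2662 and 2805 RPKM in αHetγWT and to 2268 and 3283 RPKM in αKOγWT. Gdf15, which encodes a secreted stress factor, was read 15 and 33 times against 47 and 48 times (0.93 ± 0.63, adjusted p = 0.552), so no difference was detectable at this depth.

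Smooth muscle actin, Acta2, rose from 505 and 474 to 1090 and 1019 RPKM (1.11 ± 0.14, adjusted p = 0.00905). It is a gene of smooth muscle and also of the fetal cardiomyocyte. It was the only one of 12 smooth muscle and pericyte markers to pass in edgeR (1 higher and 1 lower by DESeq2), the other 11 summing to 1210 and 1268 RPKM in αHetγWT and 1238 and 1307 RPKM in αKOγWT. Des is among the 11 and also in the heart failure and fetal programme list, so their sum is not one of smooth muscle and pericytes alone. Myh11, the defining smooth muscle myosin, gave -0.33 (adjusted p = 0.0881), and Tagln gave 0.1 (adjusted p = 0.706). Myl9, a smooth muscle myosin light chain outside the list, rose from 203 and 231 to 328 and 492 RPKM (0.92 ± 0.17, adjusted p = 0.044). In bulk RNA, a change in the number of cells of a type cannot be told apart from a change in RNA per cell.

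Genes that carry glucose into glycolysis rose in part. Of 28 tested genes of glucose uptake and glycolysis, 4 rose, 1 fell and 23 did not pass (median 0.07), against 0.743% higher and 0.491% lower over all tested genes. Hexokinase gene Hk1 (chr10:62268855-62379920), whose product commits glucose to the cell, rose from 73.2 and 75.6 to 142 and 146 RPKM (0.96 ± 0.07, adjusted p = 0.00111). Gpi1, the isomerase of the next step, rose from 313 and 325 to 496 and 519 RPKM (0.68 ± 0.08, adjusted p = 0.00972). Pfkp, a phosphofructokinase isoform that is minor in adult heart, rose from 41.0 and 42.4 to 78.9 and 79.3 RPKM (0.93 ± 0.15, adjusted p = 0.0228). Eno1, the enolase isoform of the fetal heart, rose from 89.5 and 93.4 to 146 and 159 RPKM (0.74 ± 0.10, adjusted p = 0.0104). It has many processed pseudogenes, so its count depends on how the authors assigned shared reads.

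Some isoforms typical of adult muscle did not move with them. Hk2 gave -0.15 (adjusted p = 0.654), Pfkm -0.29 (adjusted p = 0.202) and Eno3 -0.12 (adjusted p = 0.54). Pgam2, another muscle isoform, leaned upward and did not pass (0.26 ± 0.08, adjusted p = 0.2). Pfkfb2, the cardiac enzyme that makes an activator of phosphofructokinase, fell from 18.6 and 18.8 to 11.6 and 11.8 RPKM (-0.67 ± 0.07, adjusted p = 0.0035). The basal glucose transporter gene Slc2a1 stood at 6.44 and 6.84 against 12.8 and 10.1 RPKM and did not pass (0.79 ± 0.17, adjusted p = 0.0736). At an unadjusted p under 0.05 in edgeR, 13 of the 28 genes of the list were higher and 5 lower, against 7.44% and 7.02% over all genes. DESeq2 called 6 genes of the list higher and 3 lower, against 4 and 1 by edgeR.

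The genes most closely tied to ERR in the heart did not pass with ERRγ intact. None of the 155 tested genes of complex I, complexes II to V, the tricarboxylic acid cycle and fatty acid uptake and oxidation passed in edgeR, and their median was -0.06 (-0.74 to 0.54). At an unadjusted p under 0.05, 8 of the 155 were higher and 29 of the 155 lower, against 7.44% and 7.02% over all genes, so more leaned down than up. By list the higher and lower counts were 0 and 5 of 43 for complex I and 3 and 7 of 50 for complexes II to V. They were 4 and 7 of 32 for the tricarboxylic acid cycle and 1 and 10 of 30 for fatty acid uptake and oxidation. DESeq2 called 1 higher and 6 lower, limma-voom 1 and 4, and limma on log2(RPKM + 1) none. Complex I genes ranged from -0.27 to 0.15, and 24 of the 43 had both αKOγWT libraries below both αHetγWT libraries, with 5 above. The same counts were 13 and 12 of 50 for complexes II to V and 19 and 8 of 32 for the tricarboxylic acid cycle. They were 15 and 6 of 30 for fatty acid uptake and oxidation, against 24.5% below and 25.1% above over all genes. Over 6 mitochondrial lists, which add the mitochondrial ribosome and the energy carriers, none of 250 genes passed in edgeR (15 higher and 37 lower unadjusted; 2 and 7 by DESeq2), with a median of -0.03.

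Single metabolic genes came near or past the threshold. Hadhb, the thiolase subunit of the trifunctional protein of β-oxidation, stood at 1058 and 945 against 780 and 740 RPKM (-0.39 ± 0.08, adjusted p = 0.0678). Ppara, the fatty acid-sensing nuclear receptor, stood at 12.9 and 13.7 against 10.4 and 8.68 RPKM (-0.47 ± 0.09, adjusted p = 0.0507). Pdk4, the kinase that holds pyruvate dehydrogenase inactive, gave 0.54 ± 0.12 (adjusted p = 0.0844). The 3 genes lay just outside the threshold, and 5 other mitochondrial or lipid genes lay inside it.

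Those were Mfn1, Mtfp1, Sod2, Mccc1 and Dgat2, each lower in αKOγWT. Mfn1, the fusion protein of the outer mitochondrial membrane, fell from 86.0 and 80 to 56.2 and 51.5 RPKM (-0.62 ± 0.07, adjusted p = 0.00584), and Mtfp1, which promotes fission, fell from 62.7 and 62.4 to 46.6 and 47.8 RPKM (-0.40 ± 0.07, adjusted p = 0.0282). Together they were 2 of 29 genes of mitochondrial biogenesis and dynamics, and no gene of that list rose in edgeR (1 higher and 2 lower by DESeq2). Sod2, the superoxide dismutase of the matrix, fell by 0.40 on the log2 scale (SE 0.07, adjusted p = 0.0311), as 1 of 26 antioxidant genes. Mccc1, of leucine breakdown, gave -0.65 ± 0.11 (adjusted p = 0.0358), as 1 of 21 genes of ketone and branched-chain amino acid oxidation. Those 21 had a median of -0.15, and DESeq2 called 0 higher and 3 lower. At an unadjusted p under 0.05 in edgeR, 0 of the 21 were higher and 9 lower, against 7.44% and 7.02% over all genes. For the 26 antioxidant genes these counts were 0 and 6, with a median of -0.06.

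Dgat2, which catalyses the last step of triglyceride synthesis, had the largest drop among the 5 most abundant falls. It fell from 173 and 158 to 84.7 and 86.7 RPKM (-0.95 ± 0.12, adjusted p = 0.00972) and was the only gene to pass in edgeR of 27 in triglyceride storage and lipid handling (1 higher and 1 lower by DESeq2). Dgat2 is also expressed in fat, and the adipocyte markers beside it were uneven. Their median was -1.69 over 11 genes, of which none passed (edgeR; 0 higher and 2 lower unadjusted; none by DESeq2), and their sums were 1942 and 1582 RPKM in αHetγWT against 1637 and 1751 RPKM in αKOγWT. The sums hide differences among members. Ucp1 stood at 97.6 and 32.5 against 1.26 and 27.8 RPKM, Adipoq at 17.5 and 5.26 against 0.595 and 6.03, and Cfd at 40.4 and 17.2 against 0.998 and 9.08. Fabp4 (0.04) and Ppargc1a (0.09) of the same list lay close to 0. The part of adipose RNA in the Dgat2 value was not tested.

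Among the other falls, Lrtm1 (chr14:29018208-29033642), a leucine-rich repeat membrane protein, fell from 27.0 and 22.4 to 6.36 and 5.17 RPKM (-2.10 ± 0.22, adjusted p = 0.00415). Gpr22, an orphan receptor expressed in heart, fell from 4.66 and 4.39 to 1.67 and 1.24 RPKM (-1.63 ± 0.16, adjusted p = 0.00339). Slc17a7, a vesicular glutamate transporter, fell from 5.49 and 5.32 to 1.47 and 2.20 RPKM (-1.55 ± 0.23, adjusted p = 0.0169). Each left the 2 groups well separated. The nucleotide receptor genes P2ry1 (-1.21 ± 0.17, adjusted p = 0.0138) and P2ry2 (-0.56 ± 0.08, adjusted p = 0.016) both fell, as did Rtn4r, a receptor for myelin inhibitors (-1.24 ± 0.23, adjusted p = 0.0492).

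Further large falls were Klhdc8a (-1.82 ± 0.22), a kelch repeat gene, Rasl10b (-1.45 ± 0.15), a small GTPase, and Ybx2 (-1.22 ± 0.18), a nucleic acid-binding protein of germ cells. Capn11, a calpain known from testis, was read 33 and 102 times in αHetγWT and 2 and 0 times in αKOγWT. The level in αKOγWT was 1.42% of the reference (95% exact interval 0.171 to 5.24%, counting error only), and the reference libraries themselves differed widely. Uckl1os, a transcript antisense to Uckl1, also fell (-1.72 ± 0.30, adjusted p = 0.0335). The sources do not say that strand was used in counting, so its reads cannot be told apart from those of Uckl1.

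Genes of muscle structure and translation were among the smaller changes. Trim54 (chr5:31116612-31137626), a ubiquitin ligase of the muscle RING finger family, fell from 41.1 and 43.7 to 21.6 and 21.2 RPKM (-0.98 ± 0.09, adjusted p = 0.0025). Kifc3, a minus-end kinesin, fell from 26.0 and 26.6 to 15.4 and 13.6 RPKM (-0.86 ± 0.08, adjusted p = 0.0025). Rpl3l, the muscle form of ribosomal protein L3, fell from 97.2 and 101 to 60.4 and 53.8 RPKM (-0.79 ± 0.12, adjusted p = 0.02), while its general counterpart Rpl3 rose from 247 and 273 to 342 and 367 RPKM (0.45 ± 0.08, adjusted p = 0.0384). These 2 paralogs resemble each other, and Rpl3 has pseudogenes, so shared reads could have been split between them. The chaperone genes Hspb8 (-0.45 ± 0.07, adjusted p = 0.0232) and Fkbp4 (-0.44 ± 0.08, adjusted p = 0.0338) also fell, Hspb8 as 1 of 19 heat shock genes. The median of those 19 was -0.21, and DESeq2 called 0 higher and 3 lower. At an unadjusted p under 0.05 in edgeR, 0 were higher and 9 lower, against 7.44% and 7.02% over all genes.

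Among the remaining rises, Cadm4 (chr7:24482023-24504533), a cell adhesion molecule, went from 15.3 and 16.6 to 41.6 and 41.3 RPKM (1.38 ± 0.08, adjusted p = 0.00023). Of the abundant rises not yet given, the isomerase gene Ppia (0.51 ± 0.07) and Sh3bgr (0.43 ± 0.08, adjusted p = 0.0461) moved little, and Ppia has many pseudogenes. Sugt1, a partner of the HSP90 chaperone, went from 23.9 and 23.9 to 45.8 and 46.0 RPKM (0.95 ± 0.07, adjusted p = 0.000648). B4galt5, which makes lactosylceramide, gave 1.00 ± 0.09 (adjusted p = 0.00224), and Eppk1, a cytoskeletal linker of epithelia, gave 1.88 ± 0.16 (adjusted p = 0.00167). Cadm4, Sugt1, B4galt5 and Eppk1 belong to the core that passed in every alternative fit. Aldh1b1, a mitochondrial aldehyde dehydrogenase, rose from 37.2 and 35.6 to 78.3 and 85.7 RPKM (1.18 ± 0.11, adjusted p = 0.00268).

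Rises from a very low level included genes seldom described in heart. Amn, whose product anchors the vitamin B12 receptor of kidney and gut, had 0 and 0 reads in αHetγWT and 28 and 42 in αKOγWT, at least 22.4-fold higher when 3 counts over the group are taken as the limit that a count of 0 allows. Cubn, the other chain of that receptor, rose from 182 and 108 to 431 and 478 reads (1.59 ± 0.24, adjusted p = 0.0193). Both chains of 1 receptor thus passed, at 1.37 RPKM or less in every library. Grin2c, a glutamate receptor subunit (1.93 ± 0.21, adjusted p = 0.00584), and Npy4r, a receptor of the neuropeptide Y family (2.61 ± 0.36, adjusted p = 0.0133), also rose, each from 0.435 RPKM or less in αHetγWT. Smpdl3b (2.69 ± 0.38), Eif5a2 (1.82 ± 0.24), Pipox (1.79 ± 0.32) and the transcripts 1700003D09Rik (3.09 ± 0.54) and E330017L17Rik (2.16 ± 0.35) were also among the largest rises that passed. 1700003D09Rik was read 4 and 10 times against 60 and 65 times. It lies at chr11:98350718-98358283 and overlaps Ppp1r1b. The sources do not say that strand was used in counting, so its reads cannot be told apart from those of Ppp1r1b.

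Signalling and biosynthesis lists gave isolated members. Of 64 secreted factor and receptor genes, 2 rose and none fell in edgeR (5 higher and 2 lower by DESeq2; median 0.1). They were Ptgds, a prostaglandin synthase and lipid carrier, from 16.2 and 13.8 to 34.7 and 36.9 RPKM (1.26 ± 0.13, adjusted p = 0.0035), and Igf1r, the receptor of insulin-like growth factor, from 4.59 and 4.64 to 6.33 and 6.02 RPKM (0.42 ± 0.07, adjusted p = 0.0215). Psat1 of serine synthesis rose (0.93 ± 0.17, adjusted p = 0.0373) as 1 of 30 genes of the integrated stress response and serine-folate list. Perp, a p53 target of cell junctions, rose (0.76 ± 0.10, adjusted p = 0.0131) as 1 of 18 genes of the p53 list. Car2, a carbonic anhydrase of red cells and other tissues, rose evenly (6.29 and 5.73 to 10.2 and 10 RPKM; 0.75 ± 0.11, adjusted p = 0.0167), while the globin genes of the same list differed between the αKOγWT replicates and did not pass.

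A few lists were displaced without any member passing in edgeR. Interferon response and antigen presentation genes had a median of -0.46 and ranged from -1.14 to -0.07, so that all 30 lay below 0. In edgeR 0 of them passed (0 higher and 4 lower unadjusted), and DESeq2 called none. Of the 30, 9 had both αKOγWT libraries below both αHetγWT libraries and 0 above, against 24.5% and 25.1% of all genes. Cell cycle genes had a median of 0.43 (-0.19 to 1.22; 0 of 36 passed in edgeR, 10 higher and 0 lower unadjusted, none by DESeq2, 4 higher in edgeR on the 4 libraries alone). Matrix genes had a median of 0.23 (-0.02 to 0.53; 0 of 39 passed in edgeR, 6 higher and 0 lower unadjusted, none by DESeq2, 1 higher in edgeR on the 4 libraries alone). Of the 39, 28 had both αKOγWT libraries above both αHetγWT libraries, as had 25.1% of all genes. Among the 36 cell cycle genes 26 did, and 1 had both below. Members of such lists share their libraries, so a common shift of small size carries no more weight than the spread between 2 pools allows.

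**Figure D4:**
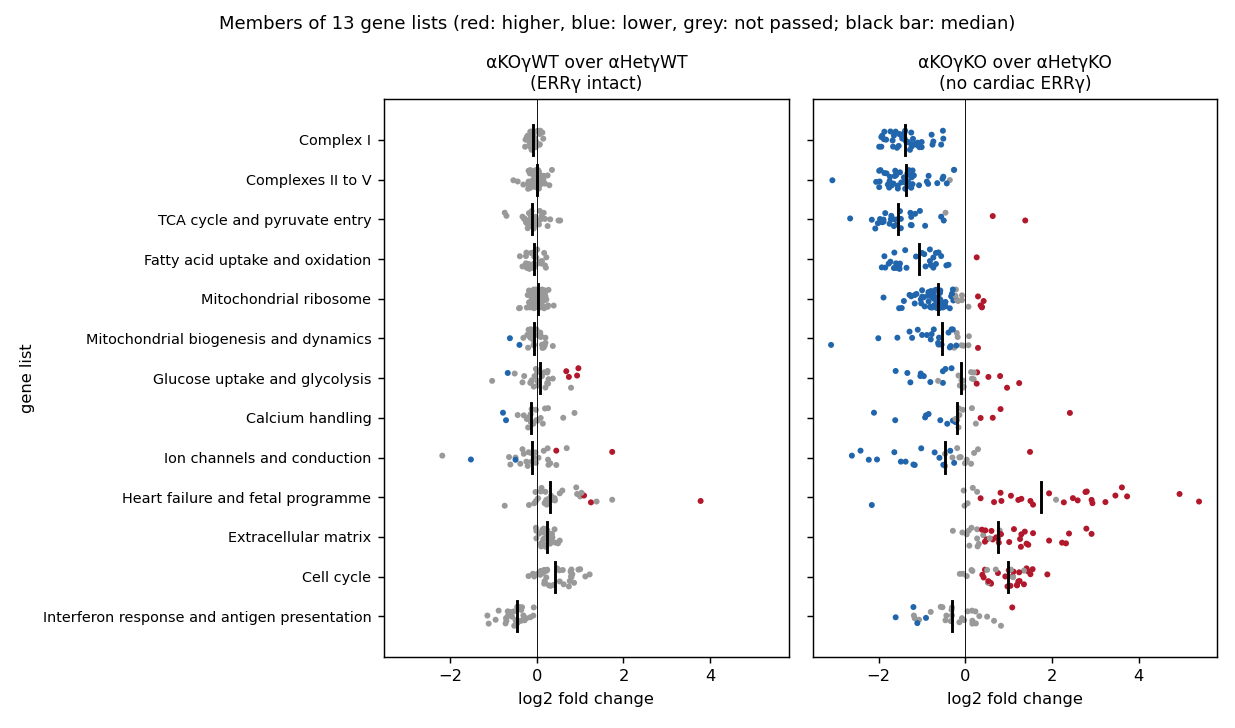
Log2 fold changes (horizontal axes) of the tested members of 13 gene lists (vertical axis) for ERRα loss with ERRγ intact (left) and without cardiac ERRγ (right), red and blue marking genes that passed higher and lower and the bar the median. The median of complex I is -0.08 on the left and -1.39 on the right.

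The same step in the ERRα alleles was then read in hearts without cardiac ERRγ, αKOγKO against αHetγKO, which share no library with the comparison above. The αKOγKO mice also develop heart failure, which cannot be told apart from ERRα loss in this step. Both steps were tested in 1 fit over the 8 libraries, so their p-values share an estimate of spread. The shares over all genes are therefore no even background for genes chosen by that fit. Far more genes passed without cardiac ERRγ, 2814 higher (18.7%) and 2956 lower (19.6%) of 15076. Every one of the 43 complex I genes was lower, as were 48 of 50 genes of complexes II to V, 29 of 32 of the tricarboxylic acid cycle and 29 of 30 of fatty acid uptake and oxidation. The difference between the 2 steps, tested as an interaction, passed for 2640 genes (17.5%). The αKOγKO libraries stood apart from each other in 2 signals, Xist in replicate 1 (7142 reads, against 6 in replicate 2) and the immediate-early gene Fos in replicate 2 (15676 reads, against 484 in replicate 1), so the shares below are also given without each library.

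Falls seen with ERRγ intact mostly recurred. Of the 74 lower genes, 63 (85.1%) were lower in αKOγKO than in αHetγKO, 4 (5.4%) were higher and 7 did not pass, against 19.6% and 18.7% over all genes. In the αKOγKO and αHetγKO libraries alone, 82.4% of the 74 were lower and 5.4% higher. Shares over all genes are not given here for that fit or for those that leave out a library. In the fit over the 8 libraries and without Esrra itself, 62 of 73 were lower, with a median of -1.34 against -0.75 for the step with ERRγ intact. Hrc fell by 2.11 on the log2 scale (SE 0.10). Mfn1 fell by 2.01 on that scale (SE 0.07). Lrtm1 fell by 4.76 (SE 0.26), from 18.6 and 14.4 to 0.828 and 0.484 RPKM. The difference between the steps passed for all 3, at -1.33 for Hrc, -1.39 for Mfn1 and -2.66 for Lrtm1. Leaving out each library of αKOγKO and αHetγKO in turn kept the share of lower genes between 77.0 and 85.1%. Mtfp1, which lost 0.40 with ERRγ intact, lost 3.10 (SE 0.07) without it, and Rpl3l lost 3.13 (SE 0.13).

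The 4 falls that turned were Prune2, Trim54, Lrrc2 and Prxl2b. Prune2, a gene of neural tissue and muscle, fell from 2.38 and 1.86 to 1.03 and 0.862 RPKM with ERRγ intact (-1.16 ± 0.17) and rose from 2.06 and 1.91 to 5.30 and 4.14 RPKM without it (1.14 ± 0.16, adjusted p = 0.000709). Trim54 rose there by 0.47 ± 0.09 and Lrrc2, a leucine-rich repeat protein of heart muscle, by 0.52 ± 0.14. The interaction passed for these 3 genes at 2.30, 1.46 and 1.52.

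Rises divided instead. Of the 112 higher genes, 45 (40.2%) were also higher in αKOγKO than in αHetγKO, 39 (34.8%) were lower and 28 did not pass. Their median over this step was 0.03, against 0.85 with ERRγ intact. Over all genes the shares were 18.7% higher and 19.6% lower, which is no even background for genes chosen by the same fit. In the αKOγKO and αHetγKO libraries alone, 36.4% of 110 rises were higher and 31.8% lower, again without a share over all genes for that fit. Leaving out each library of αKOγKO and αHetγKO in turn gave 32.1 to 42.0% higher and 28.6 to 38.4% lower.

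Genes that rose at both steps included Kcne1 (14 and 16.7 to 46.5 and 46.5 RPKM; 1.49 ± 0.14), Ankrd1 (634 and 594 to 3071 and 3343 RPKM; 2.27 ± 0.16), Acta2 (1143 and 986 to 2608 and 2012 RPKM; 1.01 ± 0.14) and Tnni1 (9.90 and 15.9 to 16.7 and 62.7 RPKM; 1.5 ± 0.51). Grin2c was extreme, going from 1.17 and 1.45 to 37.0 and 28.6 RPKM (4.53 ± 0.19). Thbs4 went from 6.08 and 6.67 to 80.6 and 71.4 RPKM (3.46 ± 0.18). Ptgds (2.07 ± 0.12), Psat1 (2.63 ± 0.16), Igf1r (1.16 ± 0.07), Perp (1.00 ± 0.10) and Eno1 (0.53 ± 0.10) rose as well. All of these but Kcne1, Tnni1 and Eno1 had both αKOγKO libraries above every other library.

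Genes that rose with ERRγ intact and fell without it included several of the largest rises. Ppp1r1b went from 10.8 and 8.90 to 1.76 and 3.05 RPKM (-2.14 ± 0.22) and Cend1 from 3.60 and 4.31 to 1.48 and 1.22 RPKM (-1.66 ± 0.18). Atp2b2 went from 220 and 239 reads to 6 and 27 (-4.15 ± 0.39), and Kcnh6 from 15 and 13 reads to 0 and 1. Wdr72, a gene of enamel formation, went from 267 and 417 reads to 13 and 12 (-5.10 ± 0.21), after a rise with ERRγ intact (241 and 229 to 708 and 615 reads; 1.44 ± 0.15). In each case the level in αKOγWT was the highest of the 4 genotypes and that in αKOγKO the lowest. The same order held for Aldh1b1 (-2.28 ± 0.11 without ERRγ), Frat2, a Wnt pathway protein (-1.92 ± 0.16), and Cadm4 (-1.24 ± 0.08), and Cacna1d went from 3.67 and 3.39 to 1.81 and 1.72 RPKM (-1.11 ± 0.11).

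Part of the glycolytic rise behaved alike. Hk1 was lower in αKOγKO than in αHetγKO (87.1 and 90.8 against 79.6 and 73.8 RPKM; -0.32 ± 0.07, adjusted p = 0.00814), as was Gpi1 (-0.52 ± 0.08), and Pfkp did not pass (-0.16 ± 0.14, adjusted p = 0.431). The interaction was negative and passed for 63 of the 112 rises and was positive for 17. Among the 74 falls it was negative for 30 and positive for 8. Over all 15076 tested genes it passed as negative for 1620 and as positive for 1020. It shares the libraries that chose these genes, so those counts are a description.

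**Figure D5:**
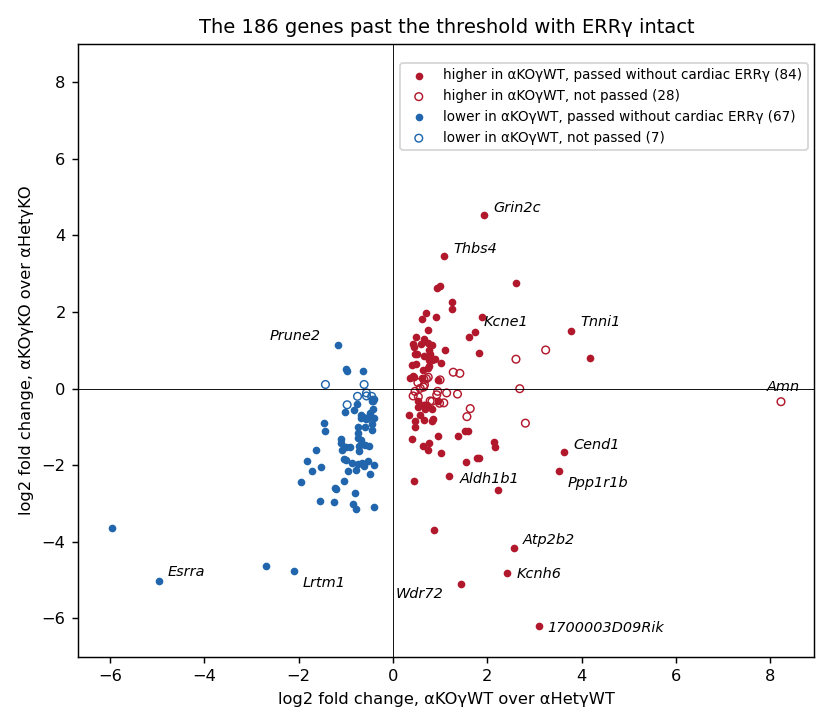
Log2 fold change for ERRα loss without cardiac ERRγ (vertical axis) against that with ERRγ intact (horizontal axis) for the 186 genes past the threshold with ERRγ intact, filled points having passed on both axes. Of the 74 genes lower on the horizontal axis 63 passed below 0 on the vertical axis, while the 112 higher genes split into 45 that passed above 0, 39 that passed below 0 and 28 that did not pass.

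The promoters of these genes were searched for the ERR recognition letters. The window ran from 250 bases before to 50 bases after the annotated start (RefSeq, GRCm38.p6), and TNAAGGTCA was sought on both strands. It was found in 3 of 89 promoters of rises (3.37%), in 0 of 59 promoters of falls and in 111 of all 11870 (0.94%). The 3 matches are shown on the strand that holds the motif, here the minus strand, with the 9 letters in capitals and 10 bases on either side.

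Hcn2 chr10:79716456-79716484: gcaagcaggcTCAAGGTCAgtcagcccct
Igf1r chr7:67952161-67952189: tccggctcgcTGAAGGTCAaagccgagca
Acsl6 chr11:54303647-54303675: ataagaatgcTCAAGGTCAggttggaggc

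Hcn2, Igf1r and Acsl6, an acyl-CoA synthetase of brain and muscle, all rose with ERRγ intact. Without cardiac ERRγ they went different ways, Hcn2 from 31.3 and 28.2 to 5.77 and 6.24 RPKM (-2.42 ± 0.09), Acsl6 from 296 and 286 to 133 and 104 reads (-1.67 ± 0.19) and Igf1r upward, as given above. The 7 core letters AAGGTCA alone, which every TNAAGGTCA contains, were in 7 of 89 promoters of rises (7.87%), 2 of 59 of falls (3.39%) and 4.12% of all. A match is a run of letters and not a measured binding site.

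By their genotypes the αKO and αHet pools differ at the targeted allele on chromosome 19, so genes near Esrra were counted apart. Of the 50 tested genes on each side, 1 of 100 passed (1.0%), and of up to 150 on each side 6 of 284 passed (2.11%), against 3 of 234 (1.28%) on the rest of the chromosome and 1.23% of all genes. The 1 close neighbour was Rcor2 (chr19:7267394-7275225), a corepressor of neuronal genes, which rose from 7.12 and 5.91 to 11.2 and 12.4 RPKM (0.86 ± 0.12, adjusted p = 0.016). It was lower in αKOγKO than in αHetγKO (-0.80 ± 0.13).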

How the data were processed

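RNA was taken with RNAzol from hearts of 16-day-old mice and pooled per library, and TruSeq libraries were sequenced from both ends. For each of 8 libraries the authors deposited a table of uniquely assigned read counts and RPKM per gene, on build mm10; the aligner, the counter and its use of strand are not given in the sources used here. The deposited RPKM equal count over gene length and library total. The deposited gene length and coverage columns, scores of another kind, were not used. Genes absent from a table were given a count of 0. The tables hold 18656 genes, 44 without a symbol and 0 of the mitochondrial genome.

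Counts were tested with edgeR 4.0.16 (R 4.3.3): filterByExpr (minimum count 10, minimum total 15), TMM, 1 mean per genotype over the 8 libraries (4 residual degrees of freedom), quasi-likelihood F tests, Benjamini-Hochberg threshold 0.05, checked first on simulated counts. Fold changes are given with SE (their size over the square root of F). Alternatives used DESeq2 1.42.0, limma 3.58.1 (log2(RPKM + 1), and voom with quality weights), other scalings and filters, fewer libraries, a replicate block and leaving out each library. The comparison and the 41 gene lists (27 of processes, 14 of cell types) were chosen with earlier results of these data known. Genes were named by a rule: the ERR genes, the 15 largest rises and falls at 1 RPKM or more, the 5 most abundant each way, up to 4 genes per list with the smallest p, passing neighbours of Esrra, and Nppa, Nppb, Gdf15, Thbs4 and Igf1r. The rule gives 198 genes, of which part is printed; some genes are not reported here. B4galt5, Cacna1d, Cadm4, Eppk1, Kifc3, Sugt1, Trim54, Rpl3, Rpl3l and others outside it were chosen after their values were seen. Promoter sequences and coordinates are from RefSeq (GRCm38.p6).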

Additional observations from a re-analysis of the deposited data

Results flagged for a closer look

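The effect of ERRα loss differed between hearts with and without cardiac ERRγ, by the interaction term of the edgeR fit (Benjamini-Hochberg adjusted over all genes), for the following named genes. A value is the log2 fold change of αKOγKO over αHetγKO minus that of αKOγWT over αHetγWT. The named genes were chosen partly on the second of these, so the sizes are descriptive. The first of these also holds the heart failure of αKOγKO mice, which cannot be told apart from ERRα loss there.

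Among named genes of ion transport and the cell membrane the difference was -7.23 for Kcnh6, -6.72 for Atp2b2, -2.87 for Hcn2, -2.64 for Cacna1d and -0.91 for Cacna1h. It was -2.66 for Lrtm1, -1.72 for Rtn4r, -1.41 for P2ry1, -1.38 for Slc17a7 and -1.33 for Hrc.

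Among other rises of αKOγWT it was -9.29 for 1700003D09Rik, which overlaps Ppp1r1b and is not a separate reading, and -8.57 for Amn. Both had 0 reads in at least 1 genotype, so that these fitted values are no bounds. The difference was -6.54 for Wdr72, -5.67 for Ppp1r1b, -5.29 for Cend1, -3.69 for E330017L17Rik, -3.62 for Pipox and -3.46 for Aldh1b1 and Frat2. Cubn, Acsl6 and Smpdl3b each gave -2.70, Cadm4 -2.62, Car2 -2.35, Rcor2 -1.66, B4galt5 -0.77, Sugt1 -0.72 and Sh3bgr -0.63.

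For genes of energy metabolism and muscle it was -2.70 for Mtfp1, -2.33 for Rpl3l, -1.60 for Sod2, -1.47 for Hadhb, -1.39 for Mfn1, -1.35 for Ybx2 and -1.30 for Mccc1. Hk1 gave -1.28, Dgat2 -1.21, Gpi1 -1.19, Ppara -1.12, Pfkp -1.08, Kifc3 -1.07, Pdk4 -1.04, Pfkfb2 -0.67 and Fkbp4 -0.46.

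Among the named genes with a positive difference it was 4.01 for Gdf15, 2.73 for Nppb, 2.37 for Thbs4, 2.18 for Nppa, 1.69 for Psat1, 1.03 for Ankrd1, 0.94 for Myl9, 0.81 for Ptgds and 0.74 for Igf1r. It was 2.60 for Grin2c, a glutamate-gated channel subunit, and positive also for Prune2 (2.30), Lrrc2 (1.52), Trim54 (1.46), Esrrg (0.70), Rpl3 (0.63) and Ppia (0.39).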

How the results depend on the processing

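The counts of 112 rises and 74 falls kept within 1.5 times of these values with the replicate block, without a filter, above a mean of 5 RPKM, with upper-quartile or DESeq2 size factors and in limma on log2(RPKM + 1), and moved further under the other settings. They were 242 and 181 with the DESeq2 Wald test, 220 and 176 with limma-voom quality weights, 221 and 181 in the 4 libraries alone, 371 and 337 in the 6 libraries without αKOγKO, and 43 and 24 at a fold of at least 2. Leaving out each library in turn gave 11 to 370 rises and 3 to 322 falls. The counts rose in each fit that left out an αKOγKO library and fell in each that left out another library, and the cause was not tested. A genotype left with 1 library was assumed to vary like the others.

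The replicate block gave 124 rises and 81 falls, but same-numbered libraries did not deviate together (correlations of -0.183 to 0.088). The authors describe the hearts as those of littermates, and such correlations cannot show whether same-numbered pools shared litters.

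Esrra kept its direction and its call in the 18 alternatives, from -5.21 to -4.25. Of 4 shares in hearts without cardiac ERRγ, 3 kept within 1.5 times, and the share of falls that were higher there, 5.4%, was 2.7% without αHetγKO replicate 1. These alternatives were chosen after seeing the data, as was the search for AAGGTCA. Of the named genes only Nppa, which did not pass, changed direction, from 0.42 to -0.11 without αKOγWT replicate 2, and it passed at 0.79 without αKOγWT replicate 1; the cause was not tested. With 2 pools a genotype, p-values measure the spread of pools only. Genes with few reads, such as Gdf15, allow no firm statement.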

Other observations

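Several groups of genes not described above had no member that passed in edgeR and medians close to 0 in αKOγWT. None of 30 nuclear receptor genes other than the ERR genes passed in edgeR (median -0.07; 1 higher and 8 lower at an unadjusted p under 0.05; 1 and 2 called by DESeq2), and the thyroid hormone receptor gene Thrb gave -0.52 (adjusted p = 0.0864). None of 19 circadian clock genes passed (median 0.04; 1 and 1 unadjusted; none by DESeq2), nor any of 12 genes of NAD synthesis (median -0.05; 1 and 2 unadjusted; none by DESeq2).

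Markers of 4 cell types of the heart were summed in each library. The 16 cardiomyocyte markers summed to 62176 and 62824 RPKM in αHetγWT and 59035 and 62614 RPKM in αKOγWT, and none passed in edgeR (2 and 2 unadjusted; 0 and 2 by DESeq2). The sums of 17 endothelial markers were 1200 and 1218 RPKM against 1151 and 1057 RPKM (none passed in edgeR; 0 and 2 unadjusted; 0 and 1 by DESeq2). Fibroblast markers summed to 1582 and 1598 against 1742 and 1762 RPKM (none of 12 passed in edgeR; 2 and 0 unadjusted; none by DESeq2), and macrophage markers to 222 and 194 against 211 and 176 RPKM (none of 17 passed in edgeR; none unadjusted; none by DESeq2).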
